A study of Mus musculus with 8 samples.

Results

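The 8 genes of ketone body and branched-chain amino acid use named here were followed through the hearts of wild-type and fat-1 mice after sham surgery or transverse aortic constriction (TAC). They were listed by name for their biochemical roles, with earlier results of these data known. All 8 of them were found among the 25929 genes of the deposited table. Bdh1, Oxct1, Acat1 and Slc16a1 belong to the use of ketone bodies, and Bcat2, Bckdha, Bckdhb and Bckdk to the breakdown of leucine, isoleucine and valine. RNA was sequenced from 8 heart libraries, 2 in each of 4 groups. WT-Sham and WT-TAC were wild-type C57BL/6 mice, and Fat1-Sham and Fat1-TAC were mice that carry fat-1, a desaturase gene of Caenorhabditis elegans that turns n-6 into n-3 polyunsaturated fatty acids. TAC narrows the aortic arch and loads the left ventricle with pressure, and sham mice went through surgery without the constriction. Mice of both genotypes were littermates and 3 months old at surgery, and the promoter of the transgene is not given in the sources used here. According to the methods the RNA came from whole hearts, and according to the labels from ventricular tissue. Each library is named by its group and number, as in WT-TAC1, and nothing in the sources says whether a library is 1 animal or a pool, so p-values measure the spread between these libraries.

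The heart takes up ketone bodies and lactate through the monocarboxylate transporter MCT1 (Slc16a1). In the mitochondrion, 3-hydroxybutyrate dehydrogenase (Bdh1) oxidises 3-hydroxybutyrate to acetoacetate, the CoA transferase SCOT (Oxct1) activates acetoacetate with succinyl-CoA, and the thiolase Acat1 splits acetoacetyl-CoA into acetyl-CoA. SCOT is the step that lets heart and muscle burn ketone bodies and that hepatocytes, which make them, lack. Branched-chain amino acids lose their amino group to the mitochondrial aminotransferase Bcat2, and the resulting keto acids are committed to oxidation by the branched-chain keto acid dehydrogenase, whose E1 subunits are encoded by Bckdha and Bckdhb. The kinase Bckdk phosphorylates E1 and switches the complex off, and the phosphatase Ppm1k removes the phosphate. Acat1 also serves the last step of isoleucine breakdown, so that it belongs to both pathways.

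All 8 genes were protein coding in the GENCODE M21 annotation of GRCm38. Ketone genes lay at chr16:31422280-31458901 on the plus strand (Bdh1), chr15:4026383-4155344 on the plus strand (Oxct1), chr9:53580522-53610382 on the minus strand (Acat1) and chr3:104638668-104658462 on the plus strand (Slc16a1). The amino acid genes lay at chr7:45570153-45589711 on the plus strand (Bcat2), chr7:25629946-25658981 on the minus strand (Bckdha), chr9:83925145-84124240 on the plus strand (Bckdhb) and chr7:127904082-127910221 on the plus strand (Bckdk).

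Promoter windows from RefSeq (GRCm38.p6) were matched by symbol for 7 of the 8 genes, Acat1 being without one. The stretches printed lie within the 250 bases before the RefSeq start and outside the annotated gene. Oxct1 is shown because it was the most abundant of the genes, and Bckdhb, Bckdk and Slc16a1 because they held every motif match found. Capitals mark matches, on either strand, to a GC box, which reads GGGCGG, to the letters of a CCAAT box, or to an E-box, which reads CACGTG. Oxct1 is at chr15:4026178-4026382, Bckdhb at chr9:83924887-83925136, Bckdk at chr7:127903823-127904072 and Slc16a1 at chr3:104638414-104638663, all on the plus strand.
Oxct1: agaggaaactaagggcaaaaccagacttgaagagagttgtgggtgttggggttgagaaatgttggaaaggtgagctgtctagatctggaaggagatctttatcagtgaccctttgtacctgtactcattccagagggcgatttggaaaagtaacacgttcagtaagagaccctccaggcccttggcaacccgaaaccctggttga
Bckdhb: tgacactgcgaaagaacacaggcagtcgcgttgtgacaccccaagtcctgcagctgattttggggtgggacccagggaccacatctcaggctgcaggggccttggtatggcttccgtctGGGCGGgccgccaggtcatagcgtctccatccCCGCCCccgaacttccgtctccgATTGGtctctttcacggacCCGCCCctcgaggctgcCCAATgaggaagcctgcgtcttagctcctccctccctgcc
Bckdk: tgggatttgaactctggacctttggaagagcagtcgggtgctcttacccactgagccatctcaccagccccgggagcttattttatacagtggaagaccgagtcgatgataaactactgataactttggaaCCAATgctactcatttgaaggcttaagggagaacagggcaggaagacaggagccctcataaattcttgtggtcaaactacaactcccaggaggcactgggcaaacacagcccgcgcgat
Slc16a1: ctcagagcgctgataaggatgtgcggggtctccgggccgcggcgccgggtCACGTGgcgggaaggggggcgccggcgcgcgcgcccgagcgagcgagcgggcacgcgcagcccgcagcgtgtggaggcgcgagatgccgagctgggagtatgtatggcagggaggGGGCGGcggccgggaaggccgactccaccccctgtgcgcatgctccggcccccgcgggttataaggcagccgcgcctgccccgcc

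Across the 10 windows of the 7 genes, 2 windows held a GC box (Bckdhb and Slc16a1) against 32.7% of all 32851 windows, 2 held a CCAAT box (Bckdhb and Bckdk) against 33.8%, and 1 held an E-box (Slc16a1) against 6.02%. The response element of estrogen-related receptors (TNAAGGTCA), nuclear receptors known for oxidative metabolism genes, was in 0 of the 10 windows and in 1.14% of all windows. These are matches of letters within 250 bases, with no overlap between the marked motifs, and they say nothing about binding. The Oxct1 stretch held none of the 4 motifs, while Bckdhb held 3 GC boxes and 2 CCAAT boxes.

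Levels were read as FPKM, fragments scaled to transcript length and library depth, so that genes can be compared per length within a library. Whole fragments could be recovered from the values, and the libraries held between 14163994 and 21218331 fragments. The smallest count behind any of the 8 genes was 654 fragments (Bckdha in WT-TAC1) and the largest 25790 (Oxct1 in WT-Sham2), so that all 8 lay far above a floor of 3 fragments. This floor covers counting error only. The 8 genes were between the 91.9th and the 99.7th percentile of the mean FPKM of all listed genes.

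Before any comparison, WT-TAC1 stood apart from the other libraries in its cell markers. The summed FPKM of 7 thymocyte markers reached 1610 in WT-TAC1, with at most 1.5 in the other 7 libraries, where Rag1, Dntt, Ptcra, Cd8b1 or Cd3e were at 0 in at least 1 library. The 8 airway epithelium markers summed to 1554 FPKM in the first and 4057 in the second WT-TAC library, to 51.2 in Fat1-Sham1 and to at most 2.78 elsewhere, and the 5 alveolar markers to 92.5 in WT-TAC1, 36.1 in Fat1-Sham1 and at most 3.98 elsewhere. In contrast, the 14 cardiomyocyte markers, all above 0 in every library, summed to 35183 and 64041 FPKM in WT-TAC, against 73603 and 69727 in WT-Sham, 72904 and 82603 in Fat1-Sham, and 77173 and 78172 in Fat1-TAC. The 6 fast skeletal muscle markers summed to 148 in WT-TAC1 and at most 7.75 elsewhere, 6 adipocyte markers to 612 and 792 in WT-TAC and between 6.23 and 295 elsewhere, 5 B and plasma cell markers to 83.3 and 41.6 in WT-TAC and between 2.08 and 34.4 elsewhere, and 6 fibroblast markers to 1023 and 1014 in WT-TAC and between 548 and 987 elsewhere. The 5 atrial markers ranged from 25.8 to 3801 with both Fat1-TAC libraries and Fat1-Sham2 under 53, the 4 hypertrophy markers from 552 to 807, and the 4 erythroid markers from 4197 to 10500. The 3 hepatocyte markers, of a cell type that makes ketone bodies, summed to at most 2.32 in any library. In bulk tissue, fewer cells of a type and less RNA per cell cannot be told apart, and the part of these markers in the differences given here was not tested beyond the scaled and left-out values that follow.

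Oxct1 was the most abundant of the genes with a mean of 806 FPKM over the 8 libraries, followed by Acat1 with 406, and the remaining 6 had means from 43.0 (Bckdha) to 72.5 (Bdh1). Oxct1 was above Acat1 and Acat1 above Bdh1 in 8 of 8 libraries. Among the other neighbours in this order, Bcat2 (67.8) was above Bckdk (56.8) in 8 of 8 libraries and Bckdhb (55.4) above Slc16a1 (48.0) in 7. Neighbouring pairs that changed place, each in 4 of 8 libraries, were Bdh1 and Bcat2, Bckdk and Bckdhb, and Slc16a1 and Bckdha. The activating enzyme and the thiolase of ketone oxidation were therefore listed several times higher than the dehydrogenase and the transporter, whereas the 4 amino acid genes lay within a narrow band of one another.

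**Figure D1:**
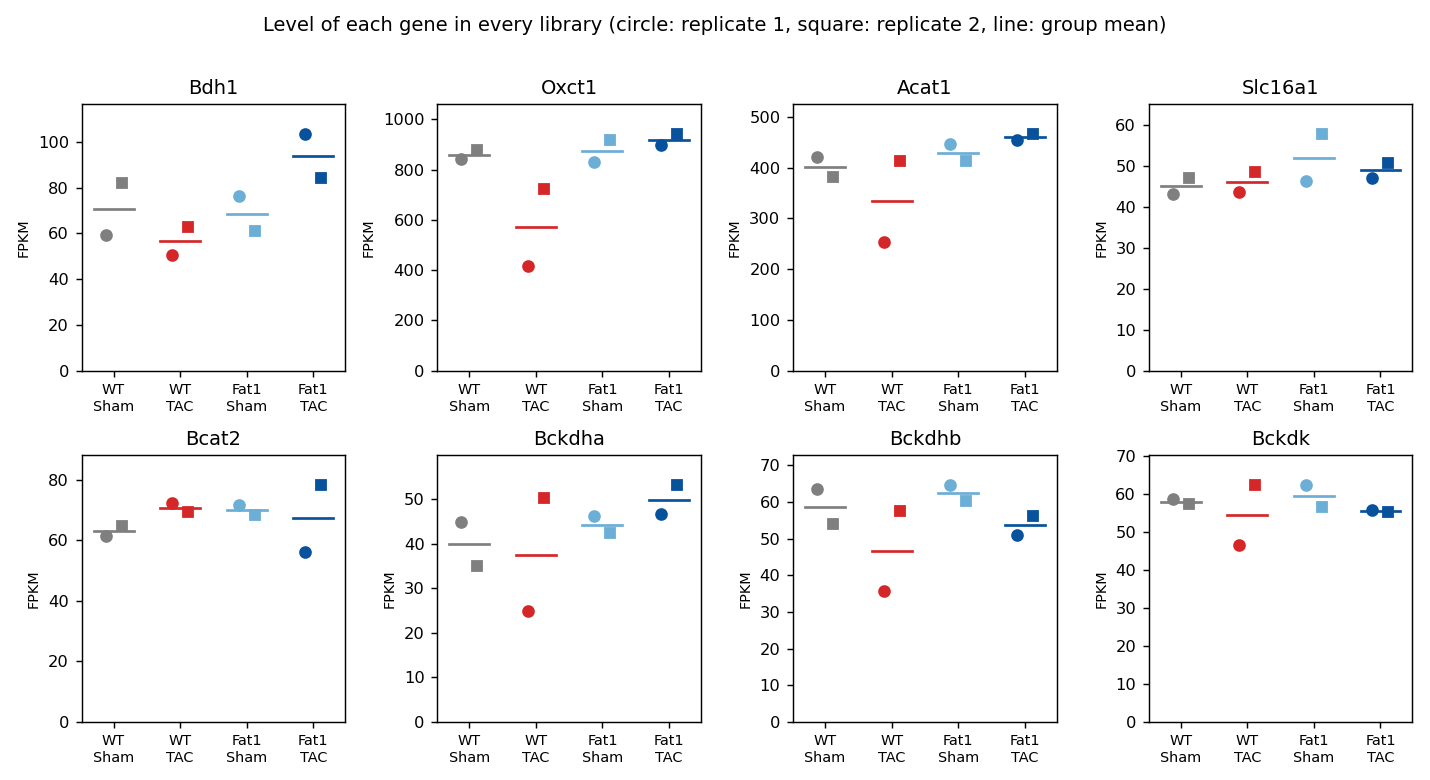
FPKM of each of the 8 genes (vertical axis, from 0) in the 8 libraries by group, with circles for replicate 1, squares for replicate 2 and lines for group means. WT-TAC1, the red circle, is the lowest library for 6 of the 8 genes, with Oxct1 at 418 FPKM against 724 to 942 in the others.

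WT-TAC1 held the lowest value of 6 of the 8 genes (Bdh1, Oxct1, Acat1, Bckdha, Bckdhb and Bckdk), whereas over all 14442 tested genes it was the lowest library for 15.7% and the highest for 58.1%. It was the highest library for 0 of the 8. Of the 34 other tested genes of both pathways it was the lowest for 18. The spread within WT-TAC was accordingly the widest of the 4 groups for Oxct1, Acat1, Bckdha, Bckdhb and Bckdk.

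The first comparison asked how pressure overload moved the genes in wild-type hearts. Between WT-TAC and WT-Sham, 0 of the 8 genes were called by limma (Benjamini-Hochberg adjusted p under 0.1, more than 1.5-fold either way), against 0.935% of all genes tested. With an unadjusted p under 0.05 and that fold change, 1 of the 8 passed (Oxct1, lower), against 23.8% of all genes either way. Of all genes, 22.7% passed as higher in WT-TAC and 1.11% as lower. The median log2 difference of the 8 was -0.23, with 6 of 8 lower after TAC, while the median over all genes was 0.39 and 20.7% of all genes were lower. On this log2(FPKM + 1) scale the 8 genes thus lay below the bulk of the transcriptome, which was shifted upwards in WT-TAC.

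Oxct1 had 841 and 878 FPKM in WT-Sham and 418 and 724 in WT-TAC. Both WT-TAC values lay under both WT-Sham values, and WT-TAC1 lay far under WT-TAC2. The means were 860 ± 26.3 and 571 ± 216 FPKM (SD, n = 2 each), and the log2 difference was -0.64 with a 95% interval from -1.26 to -0.03 and an adjusted p of 0.179 by limma. Without WT-TAC1 the difference was -0.25, and without WT-TAC2 it was -1.04 and called, with an adjusted p of 0.000906 by limma. The lower level of SCOT mRNA in WT-TAC therefore rested mostly on 1 library.

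Acat1 had 422 and 382 FPKM in WT-Sham and 254 and 413 in WT-TAC. WT-TAC2 lay among the sham libraries and WT-TAC1 below all of them. The log2 difference was -0.31 (95% interval -0.86 to 0.24), became 0.040 when WT-TAC1 was left out and -0.66 when WT-TAC2 was. Bdh1 had 59.3 and 82.1 FPKM in WT-Sham and 50.5 and 62.9 in WT-TAC, groups that overlapped, with a log2 difference of -0.30 (95% interval -0.83 to 0.22). Slc16a1 was nearly level, with 43.1 and 47.1 FPKM in WT-Sham, 43.5 and 48.5 in WT-TAC, and a log2 difference of 0.03 (95% interval -0.35 to 0.41).

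Among the amino acid genes, Bcat2 had 61.4 and 64.8 FPKM in WT-Sham and 72.4 and 69.3 in WT-TAC, groups that did not overlap, with a log2 difference of 0.16 (95% interval -0.25 to 0.58). Bckdha had 45.0 and 35.0 FPKM in WT-Sham and 24.9 and 50.2 in WT-TAC, so that the 2 WT-TAC libraries were the lowest and the second highest of all 8 for this subunit. Bckdhb, the partner subunit, had 63.5 and 53.9 FPKM in WT-Sham and 35.7 and 57.6 in WT-TAC. Their log2 differences were -0.16 (95% interval -0.89 to 0.57) and -0.36 (-0.90 to 0.18). The kinase Bckdk had 58.5 and 57.3 FPKM in WT-Sham and 46.6 and 62.2 in WT-TAC, with a difference of -0.10 (-0.50 to 0.29). Groups did not overlap for Oxct1, lower in WT-TAC as were 7.09% of all genes, and for Bcat2, higher as were 52.5% of all genes.

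Without WT-TAC1, 0 of the 8 genes were called in WT-TAC against WT-Sham and their median difference was 0.070. Without WT-TAC2, 4 were called lower (Oxct1, Acat1, Bckdha and Bckdhb) and the median was -0.56. In that fit 51.3% of all genes were called and 6.31% were called lower. In both fits the lone WT-TAC library was assumed to vary like the other groups. The values without WT-TAC2 therefore rest on WT-TAC1, the library with the highest thymocyte and alveolar and the lowest cardiomyocyte marker sums. Its airway marker sum of 1554 FPKM was under that of WT-TAC2, which was 4057.

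The second comparison asked the same of fat-1 hearts. Between Fat1-TAC and Fat1-Sham, 0 of the 8 genes were called by limma, against 0.00692% of all genes, and 0 had an unadjusted p under 0.05 with the fold change, against 1.86% of all genes. The median log2 difference of the 8 was -0.0025 and that of all genes 0.02. Bdh1 had the largest difference of the 8, with 76.2 and 61.1 FPKM in Fat1-Sham and 103 and 84.1 in Fat1-TAC. Both Fat1-TAC values were above both Fat1-Sham values, the means were 93.8 ± 13.7 and 68.6 ± 10.7 FPKM (SD, n = 2 each), and the log2 difference was 0.45 with a 95% interval from -0.08 to 0.97 and an adjusted p of 1 by limma.

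Oxct1 was at 832 and 919 FPKM in Fat1-Sham and 897 and 942 in Fat1-TAC, a log2 difference of 0.07 (95% interval -0.54 to 0.69), and Acat1 at 446 and 412 against 455 and 466, a difference of 0.10 (-0.45 to 0.65). Slc16a1 was at 46.2 and 57.7 FPKM in Fat1-Sham and 47.1 and 50.8 in Fat1-TAC, with a difference of -0.08 (-0.46 to 0.30). These 3 ketone genes thus differed little from their sham level, with intervals that still allow changes in either direction.

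Of the amino acid genes, Bckdha had 46.3 and 42.4 FPKM in Fat1-Sham and 46.6 and 53.2 in Fat1-TAC, and Bckdhb had 64.7 and 60.2 against 51.0 and 56.3. The subunits of E1 thus lay on opposite sides of their sham values, with log2 differences of 0.17 (95% interval -0.56 to 0.90) for Bckdha and -0.22 (-0.76 to 0.33) for Bckdhb. Bckdk had 62.3 and 56.4 FPKM in Fat1-Sham and 55.7 and 55.1 in Fat1-TAC, a difference of -0.10 (-0.49 to 0.30), and Bcat2 had 71.6 and 68.5 against 56.3 and 78.3, a difference of -0.08 (-0.49 to 0.34). Groups did not overlap for 3 genes that were higher in Fat1-TAC (Bdh1, Acat1 and Bckdha), as for 26.8% of all genes, and for 2 that were lower (Bckdhb and Bckdk), as for 21.5% of all genes.

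The third comparison set the genotypes against each other after TAC. Between Fat1-TAC and WT-TAC, 0 of the 8 genes were called by limma, against 1.43% of all genes. With an unadjusted p under 0.05 and the fold change, 2 passed (Bdh1 and Oxct1, higher), against 25.2% of all genes either way. Of all genes, 1.72% passed as higher in Fat1-TAC and 23.5% as lower. The median log2 difference was 0.36, with 7 of 8 higher in Fat1-TAC, while the median of all genes was -0.40 and 78.0% of all genes were lower. Bdh1 was higher in Fat1-TAC by 0.72 (95% interval 0.19 to 1.24, adjusted p = 0.162 by limma), as both Fat1-TAC values of 103 and 84.1 FPKM lay above the WT-TAC values of 50.5 and 62.9. Oxct1 was higher by 0.74 (95% interval 0.12 to 1.35, adjusted p = 0.163 by limma), at 897 and 942 FPKM against 418 and 724.

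Acat1 was 0.51 higher in Fat1-TAC (95% interval -0.04 to 1.05), at 455 and 466 FPKM against 254 and 413. Groups did not overlap for these 3 ketone genes, as for 9.33% of all genes in that direction, and for 0 genes of the 8 in the direction of lower values, as for 57.1% of all genes. Slc16a1 (0.09), Bckdk (0.04) and Bcat2 (-0.09) differed by less than 0.10, and Bckdha (0.48) and Bckdhb (0.23) had intervals that included 0. Without WT-TAC1 the median of the 8 was -0.00064 and 0 were called, with Bdh1 at 0.56 and Oxct1 at 0.34. Without WT-TAC2 it was 0.71 and 4 were called higher (Bdh1, Oxct1, Acat1 and Bckdha), in a fit that called 54.3% of all genes and 7.44% of them in that direction.

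The fourth comparison was that of genotypes after sham surgery. Between Fat1-Sham and WT-Sham, 0 of the 8 genes were called, and limma called 0% of all genes. At an unadjusted p under 0.05 with the fold change, 0 of the 8 and 0.893% of all genes passed. The differences of the 8 ran from -0.03 (Bdh1) to 0.19 (Slc16a1) with a median of 0.09, against -0.01 over all genes. Bcat2 was the 1 gene whose groups did not overlap, with 71.6 and 68.5 FPKM in Fat1-Sham above 61.4 and 64.8 in WT-Sham, as for 15.5% of all genes in that direction, and 0 of the 8 had lower groups without overlap, as for 16.5% of all genes. The 95% intervals reached from -0.59 to 0.88 over the 8 genes, and all 8 included 0.

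The interaction of genotype and surgery asked directly whether the response to TAC differed between genotypes. Of the 8 genes, 0 were called by limma, against 0.0692% of all genes. With an unadjusted p under 0.05 and the fold change, 1 passed (Bdh1, above 0), against 6.99% of all genes either way. Of all genes, 0.609% passed above 0 and 6.38% below 0. The interaction was 0.75 for Bdh1 (95% interval 0.01 to 1.49, adjusted p = 0.495 by limma), 0.71 for Oxct1 (-0.16 to 1.58) and 0.41 for Acat1 (-0.36 to 1.19). The remaining 5 genes lay between -0.24 (Bcat2) and 0.33 (Bckdha). The median of the 8 was 0.23 with all libraries and -0.18 without WT-TAC1, and that of all genes was -0.37 and -0.19. Without WT-TAC2, 4 of the 8 were called with an interaction above 0 (Bdh1, Oxct1, Acat1 and Bckdha), in a fit that called 46.2% of all genes and 6.12% in that direction.

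**Figure D2:**
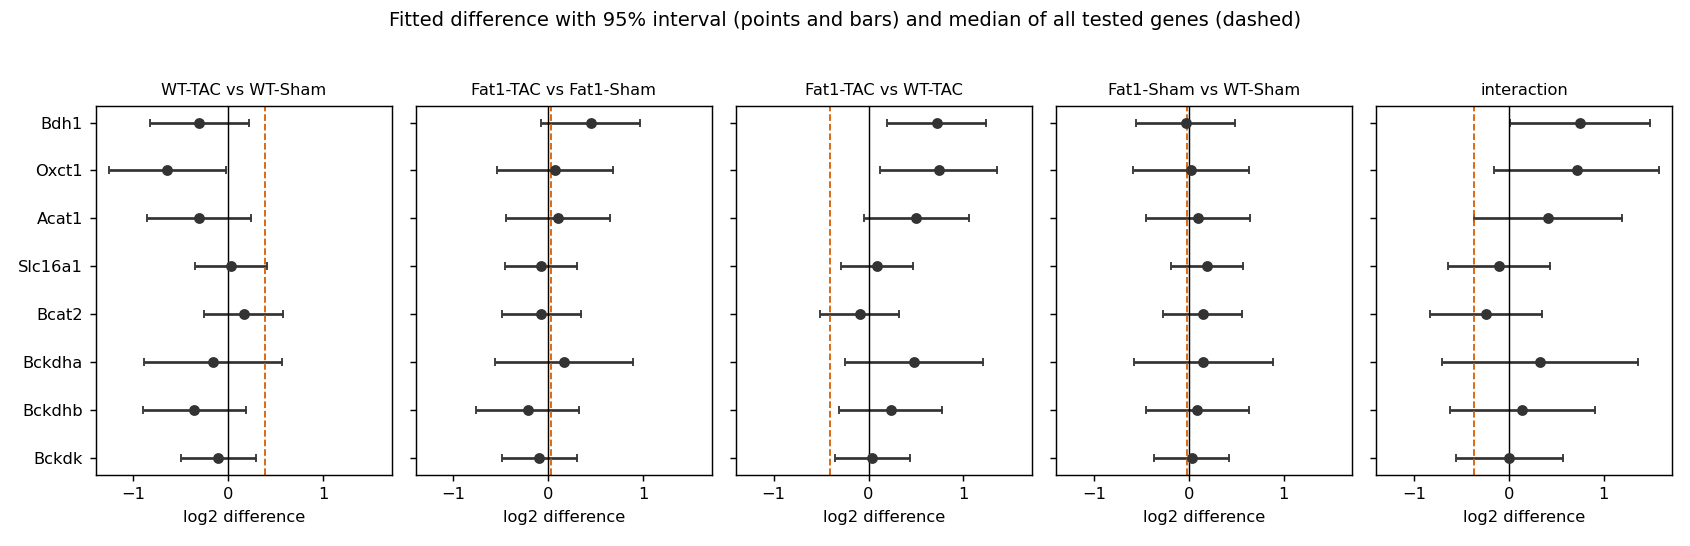
Fitted log2 difference of each gene (points) with its 95% interval from limma (bars) in the 4 comparisons and the interaction, with the median of all tested genes as a dashed line at 0.39, 0.02, -0.40, -0.01 and -0.37 from left to right. All 40 values are on the log2(FPKM + 1) scale, and the intervals that leave out 0 are those of Oxct1 in WT-TAC vs WT-Sham, Bdh1 and Oxct1 in Fat1-TAC vs WT-TAC, and Bdh1 in the interaction.

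Each gene was then set against the cardiomyocyte mRNA of its own library, as FPKM per 1000 FPKM of the summed 14 cardiomyocyte markers, an alternative chosen after the data had been seen. Oxct1 was the flattest of the 8 on this measure, with 11.4 and 12.6 in WT-Sham, 11.9 and 11.3 in WT-TAC, 11.4 and 11.1 in Fat1-Sham and 11.6 and 12.05 in Fat1-TAC. The highest library was 1.13-fold above the lowest, against 2.25-fold in FPKM. The low Oxct1 FPKM of WT-TAC1 thus went with an equally low sum of cardiomyocyte markers, and per unit of these markers WT-TAC1 lay inside the range of the other libraries.

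Several of the other genes, among them Acat1, Bckdha, Bckdhb and Bckdk, turned direction against FPKM in their group means of WT-TAC and WT-Sham. Bcat2 and Slc16a1 had the higher mean in WT-TAC on both measures. Acat1 per 1000 FPKM of markers was 7.23 and 6.45 in WT-TAC, above 5.73 and 5.48 in WT-Sham and 5.89 and 5.97 in Fat1-TAC. Bckdha was 0.708 and 0.784 in WT-TAC against 0.611 and 0.502 in WT-Sham, and Bckdhb was 1.01 and 0.900 against 0.863 and 0.773. Bcat2 was 2.06 and 1.08 in WT-TAC against 0.835 and 0.929 in WT-Sham, Slc16a1 was 1.24 and 0.758 against 0.585 and 0.675, and Bckdk was 1.32 and 0.971 against 0.795 and 0.822. On this measure 6 of the 8 genes (all but Oxct1 and Bdh1) had both WT-TAC values above both WT-Sham values, as did 79.4% of all genes, and the same 6 had them above both Fat1-TAC values, as did 87.4% of all genes. Most of the transcriptome was thus higher in WT-TAC on this measure, and the 6 genes shared that direction. With 2 libraries against 2, the exact permutation test of a single value cannot give a two-sided p below 0.333.

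**Figure D3:**
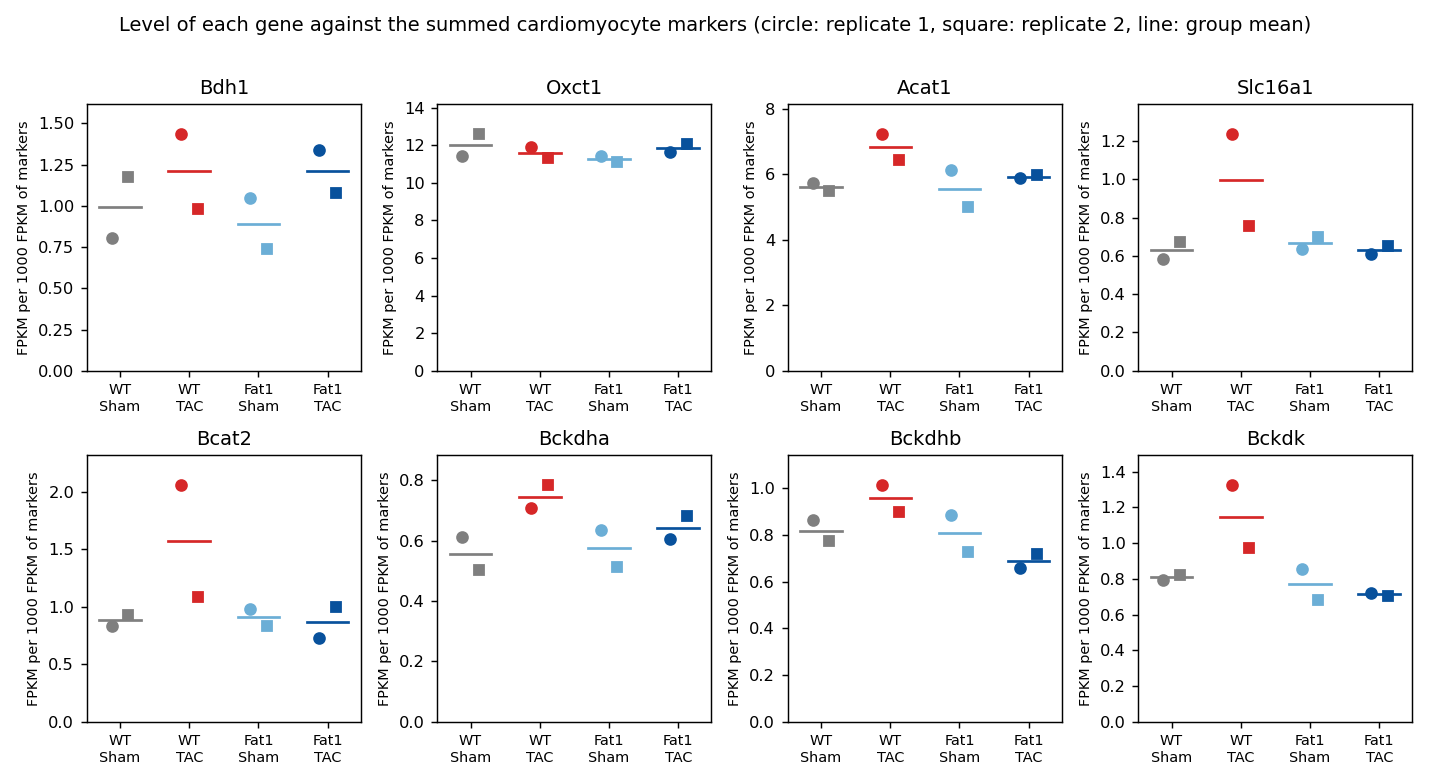
FPKM of each gene per 1000 FPKM of the 14 summed cardiomyocyte markers of the same library (vertical axis, from 0), with circles for replicate 1, squares for replicate 2 and lines for group means. Oxct1 stays between 11.1 and 12.6 in all 8 libraries, while Bcat2 reaches 2.06 in WT-TAC1 and lies between 0.729 and 1.08 in the other 7.

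The direction of the group as a whole therefore depended on the scale. With libraries scaled by the mean log level of the cardiomyocyte markers, the median difference of the 8 genes was 0.34 for TAC in wild-type mice and -0.32 for genotype after TAC, opposite in sign to the FPKM values of -0.23 and 0.36. With scaling by the median of ratios it was -0.70 and 0.81. These scalings also moved the median of all genes, which was, for TAC in wild-type mice, 0.39 in FPKM, 0.91 with the cardiomyocyte scaling and -0.01 with the median of ratios. Relative to that median the 8 genes were lower in WT-TAC under each of the 3 scales. A scaling by 1 factor per library moves the 8 genes and that median nearly alike. The same order on the 3 scales is therefore no separate evidence. Under all of them 0 of the 8 genes were called.

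**Figure D4:**
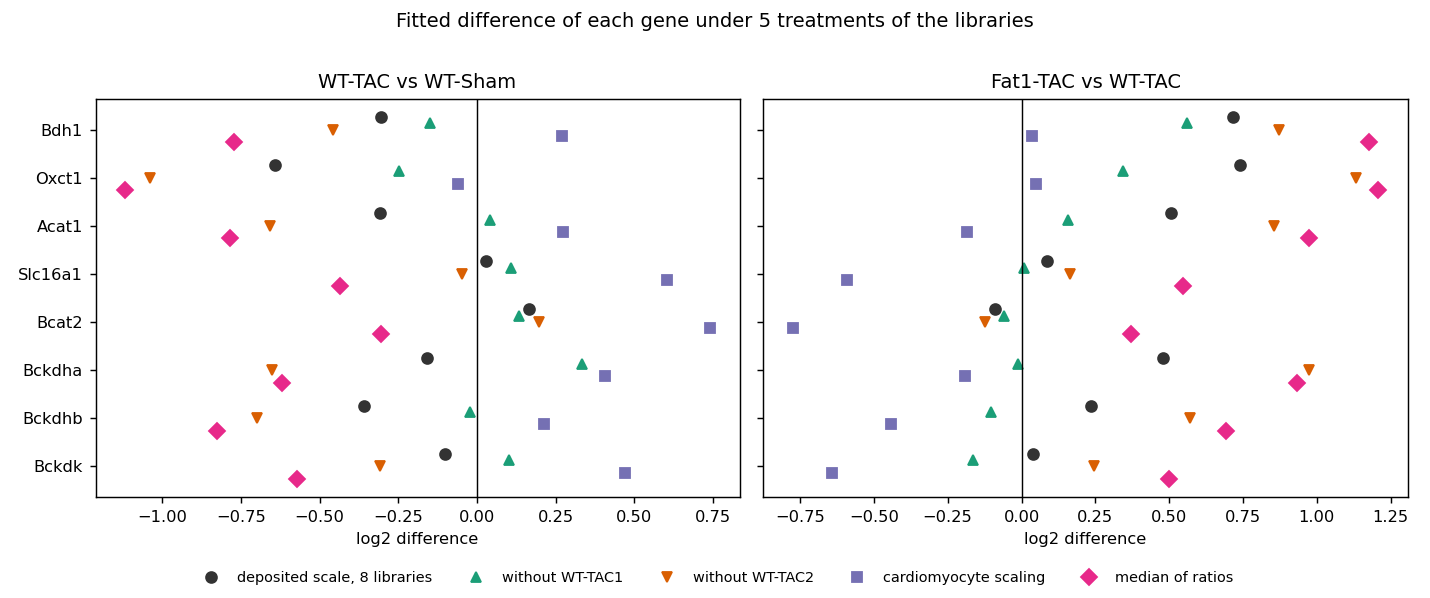
Log2 difference of each gene (horizontal axis) in WT-TAC vs WT-Sham (left) and Fat1-TAC vs WT-TAC (right) with all 8 libraries on the deposited scale, without WT-TAC1, without WT-TAC2, and with 2 other scalings. For Oxct1 in WT-TAC vs WT-Sham the points run from -1.119 with the median of ratios to -0.06 with the cardiomyocyte scaling.

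Ratios of 2 genes within a library do not depend on scaling. The ratio of the E1 subunits, Bckdha to Bckdhb, was 0.708 and 0.649 in WT-Sham, 0.697 and 0.871 in WT-TAC, 0.716 and 0.704 in Fat1-Sham, and 0.914 and 0.946 in Fat1-TAC. Both Fat1-TAC libraries were thus above the other 6, and WT-TAC2 was above the remaining 5. The means were 0.930 ± 0.0223 in Fat1-TAC and 0.710 ± 0.00808 in Fat1-Sham (SD, n = 2 each), and the standard error from counting fragments alone was between 4.21% and 5.44% of the ratio in each library. The exact two-sided permutation p of this comparison, 0.333, is the smallest it can give.

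The kinase set against both E1 subunits, Bckdk to the mean of Bckdha and Bckdhb, was 1.08 and 1.29 in WT-Sham and 1.54 and 1.15 in WT-TAC. In Fat1-Sham it was 1.12 and 1.10, and in Fat1-TAC 1.14 and 1.01. WT-TAC1 had the highest ratio, and the groups overlapped except Fat1-TAC and WT-TAC. The phosphatase set against the kinase, Ppm1k to Bckdk, was 0.846 and 0.916 in Fat1-TAC, above 0.776 and 0.658 in Fat1-Sham and 0.803 and 0.777 in WT-TAC. In WT-Sham it was 0.758 and 0.861, a range that overlapped with Fat1-TAC. Bcat2 was far above its cytosolic counterpart Bcat1 in every library, by 23.9-fold in WT-TAC1 and by 56.5-fold to 148-fold in the other 7. Bcat1 rested on only 15 to 100 fragments per library, so the size of this ratio is imprecise.

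In the ketone pathway, Acat1 to Oxct1 was 0.608 and 0.570 in WT-TAC, above 0.502 and 0.435 in WT-Sham and 0.507 and 0.495 in Fat1-TAC, with 0.536 and 0.449 in Fat1-Sham. Bdh1 to Oxct1 was between 0.0664 and 0.121, highest in WT-TAC1 and second highest in Fat1-TAC1 (0.115), and its groups overlapped in every comparison. The transporter ratio Slc16a1 to Slc16a3, which encodes MCT4, was 25.9 and 25.7 in Fat1-Sham and 23.4 and 23.7 in Fat1-TAC, above 20.5 and 13.1 in WT-Sham and 12.4 and 13.5 in WT-TAC, and Slc16a3 itself was between 1.78 and 3.60 FPKM.

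**Figure D5:**
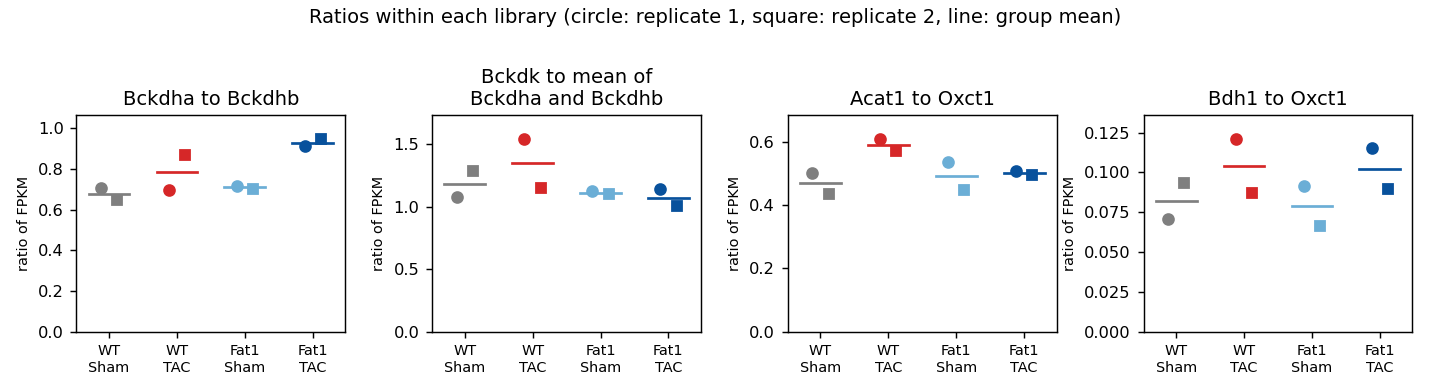
Ratio of FPKM within each library (vertical axis, from 0) for 4 pairs, with circles for replicate 1, squares for replicate 2 and lines for group means. Bckdha to Bckdhb is 0.914 and 0.946 in Fat1-TAC and at most 0.871 in the other 6 libraries, and Acat1 to Oxct1 is 0.608 and 0.570 in WT-TAC and at most 0.536 in the other 6.

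Levels of several of the genes followed one another over the 8 libraries on the log2 scale. Pearson's r was 0.95 between Acat1 and Bckdha, 0.93 between Acat1 and Oxct1, 0.90 between Bckdhb and Bckdk and 0.86 between Acat1 and Bckdhb, while Bcat2 had r between -0.34 and 0.25 with the other 7. All of these values share the 8 libraries and the low values of WT-TAC1, and they are given as a description. The 2 genes most like each were Entpd5 (r = 0.98) and Tmem69 (0.96) for Bdh1, Map1lc3a (0.99) and Fxyd1 (0.99) for Oxct1, Acadm (0.99) and Cdh5 (0.99) for Acat1, and Fam161b (0.97) and Slmap (0.95) for Slc16a1. For the amino acid genes they were Zc3h7b (0.92) and Spata17 (0.90) for Bcat2, Sema6b (0.97) and Smyd2 (0.97) for Bckdha, Acsl6 (0.99) and Ndufv1 (0.99) for Bckdhb, and Tspan15 (0.97) and Clybl (0.97) for Bckdk.

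The other genes of both pathways were read from a list of 37, of which 35 were in the table and 34 were tested. Oxct2a and Oxct2b, the testis forms of SCOT, were not analysed here, and Bcat1 (0.51 to 3.03 FPKM) was under the filter. Of the 34, 0 were called in any of the 4 comparisons or the interaction by limma. Without WT-TAC2 their median difference was -0.29 for TAC in wild-type mice, 0.28 for genotype after TAC and 0.19 in the interaction. All genes then had medians of 0.54, -0.57 and -0.53. Without Fat1-TAC2 the median of the 34 was 0.068 for genotype after TAC. With all 8 libraries it was -0.11 for TAC in wild-type mice, 0.13 for genotype after TAC and 0.041 in the interaction. With an unadjusted p under 0.05 and the fold change, 6 were higher and 1 lower after TAC in wild-type hearts, against 22.7% and 1.11% of all genes, and 0 were higher and 7 lower in Fat1-TAC than in WT-TAC, against 1.72% and 23.5%. At that level 0 passed between Fat1-TAC and Fat1-Sham or between Fat1-Sham and WT-Sham. The 24 tested genes of branched-chain amino acid breakdown and transport had a median difference of -0.15 in WT-TAC against WT-Sham with 18 lower, and the 10 ketone genes one of 0.41 with 8 higher, against 0.39 over all genes.

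The genes with the largest differences were not enzymes of mitochondrial ketone oxidation. Emb (embigin, a partner protein of monocarboxylate transporters) had 1.83 and 4.39 FPKM in WT-Sham, 35.1 and 7.96 in WT-TAC, 2.66 and 1.29 in Fat1-Sham, and 1.28 and 1.54 in Fat1-TAC. Its log2 difference was 2.20 in WT-TAC against WT-Sham (adjusted p = 0.175 by limma), with WT-TAC1 by far the highest library. Aacs, which activates acetoacetate in the cytosol for lipid synthesis, had 56.4 and 75.7 FPKM in WT-TAC and between 4.01 and 20.6 in the other 6 libraries. Its lowest value was in Fat1-TAC1, the library that also had the lowest adipocyte marker sum of 6.23 FPKM, and its highest in WT-TAC2, which had the highest sum of 792.

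Acat2, the cytosolic thiolase, had 15.4 and 17.4 FPKM in WT-TAC and between 2.86 and 7.04 elsewhere, with a log2 difference of -1.85 in Fat1-TAC against WT-TAC (adjusted p = 0.109 by limma). With the cardiomyocyte scaling that difference was called, with an adjusted p of 0.0926 by limma. That fit called 231 of the 14442 genes, 229 of them lower in Fat1-TAC. In it 97.3% of all genes were lower, with a median of -1.01, so a lower Acat2 shared the direction of nearly all genes. Slc43a1, the large neutral amino acid transporter LAT3, had 14.8 FPKM in WT-TAC1, whereas WT-TAC2 had 2.98 and the other 6 libraries 1.36 to 1.90. Between Fat1-TAC and Fat1-Sham the larger differences included those of Klf15 (-0.34), a transcription factor known to drive amino acid breakdown in heart, and Aacs (-0.32), and after sham the largest were those of Emb (-0.43), Aacs (-0.40) and Bdh2 (-0.36), all with an adjusted p of 1 by limma.

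Of the other listed genes, Acadm, the medium-chain acyl-CoA dehydrogenase, had 858 FPKM in WT-TAC1 and between 1330 and 1764 in the other 7 libraries. This was the pattern of Acat1. The phosphatase Ppm1k was between 37.1 and 50.5 FPKM with its lowest values in Fat1-Sham2 and WT-TAC1.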

How the data were processed

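Total RNA was extracted from mouse hearts for mRNA sequencing, which gave 8 libraries. The authors deposited 1 FPKM value per gene and library, in which fragments are divided by transcript length and library depth. The submitters' processing notes name HISAT2, mm10 and GRCm38, and the counting program and annotation are not given in the sources used here. The table held 25929 genes, of which 77 had no symbol, and 4 blank lines were removed. Positions are those of GENCODE M21 (GRCm38), and promoter windows those of RefSeq (GRCm38.p6).

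Whole fragments were recovered at 1 length per gene for 100.0% of genes, within 0.004 fragments, against 0.05% of 2000 decoy genes. Values were transformed as log2(FPKM + 1), which understates changes of low genes. The 14442 genes that reached 1 FPKM in 2 or more libraries were fitted with limma 3.58.1 in R 4.3.3 (lmFit and eBayes with a trend, 4 group means, all 8 libraries), after a test on simulated data. A gene counted as called when its Benjamini-Hochberg adjusted p, over all genes tested, was under 0.1 and it differed more than 1.5-fold. Intervals are at the 95% level from the moderated standard error, in which each gene has 1 spread shared by all 4 groups. Python 3.11.15 was used for the summaries.

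The 8 genes, the pathway list, the ratios and the markers were chosen with earlier results of these data known. The text names the 8 genes, those pathway genes that were called or had one of the 3 largest absolute differences in a comparison, the ratio partners, the 2 genes with the highest Pearson r to each of the 8, and markers. Slc16a6, Slc25a44 and Slc3a2 were named after their values were seen. Alternatives were 2 other normalizations (median of ratios, quantiles), cardiomyocyte scaling, a scaling without mitochondrially encoded genes, no filter, a mean of 5 FPKM or more, a fit of only the 2 groups in question, 0.1 as pseudocount, the replicate block, limma without a trend, a per-gene test, limma-voom on recovered fragments, and each library left out. Cardiomyocyte scaling together with leaving out WT-TAC1, and the values per cardiomyocyte marker, were added after the data had been seen. A result that these rules would name is not reported here.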

Additional observations from a re-analysis of the deposited data

Results flagged for a closer look

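For 3 of the 34 other tested genes of both pathways, against 9.19% of all genes tested, and for 1 of the 8 genes on the cardiomyocyte scale, against 12.1%, all libraries of WT-TAC lay on one side of WT-Sham and all libraries of Fat1-TAC on the other side of Fat1-Sham. Both shares were near those of all genes, so the opposite order does not set these genes apart. It was what drew attention, and for each of the 3 pathway genes the interaction of genotype and surgery was read from limma. Slc25a44, the mitochondrial carrier of branched-chain amino acids, had 5.86 and 7.82 FPKM in WT-Sham, 10.9 and 10.9 in WT-TAC, 8.74 and 7.36 in Fat1-Sham, and 5.96 and 7.30 in Fat1-TAC. Its interaction was -0.86 on the log2 scale (adjusted p = 0.495 by limma), and it was also -0.86 without WT-TAC1.

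Slc3a2, the heavy chain of the transporter that takes up large neutral amino acids, had 69.6 and 45.5 FPKM in WT-TAC and between 32.7 and 39.4 in the other 6 libraries. Its interaction was -0.69 (adjusted p = 0.495 by limma) and -0.39 without WT-TAC1. Slc16a6, a monocarboxylate transporter, had 13.7 and 6.82 FPKM in WT-TAC against 6.37 and 5.47 in WT-Sham, and 5.91 and 7.06 in Fat1-TAC against 7.88 and 7.10 in Fat1-Sham. Its interaction was -0.82 (adjusted p = 0.495 by limma) and -0.36 without WT-TAC1.

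Bckdhb per 1000 FPKM of cardiomyocyte markers was 1.01 and 0.900 in WT-TAC above 0.863 and 0.773 in WT-Sham, and 0.661 and 0.720 in Fat1-TAC under 0.887 and 0.729 in Fat1-Sham. The difference of the 2 changes was -0.257, and this difference was not tested. Groups of 2 libraries are too small for a search for outlying samples.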

How the results depend on the processing

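Under each of 21 alternatives the number of the 8 genes called was recomputed, and it was 0 except without WT-TAC replicate 2, where it was 4 for TAC in wild-type mice, for genotype after TAC and for the interaction, in fits that called 51.3%, 54.3% and 46.2% of all genes, so that leaving out single libraries gave 0 to 4. Limma-voom on recovered fragments, limma without a trend and the per-gene test called 0. The median log2 difference of the 8 moved by more than the spread between replicates (0.164) in these 3 comparisons. In WT-TAC against WT-Sham it was 0.34 with cardiomyocyte scaling, 0.21 with that scaling and without WT-TAC1, -0.70 with the median of ratios, -0.47 with quantiles, and -0.56 to 0.070 with single libraries left out. In Fat1-TAC against WT-TAC it was -0.32, -0.25, 0.81, 0.60 and -0.00064 to 0.71 in the same order, and in the interaction -0.34, -0.32, 0.65, 0.50 and -0.18 to 0.62. WT-TAC1 was divided by 0.526 in the cardiomyocyte scaling and by 1.52 with the median of ratios, and WT-TAC2 by 0.964 and 1.11. Why these factors differ was not tested.

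A difference larger than its standard error turned in sign in 16 cases. In WT-TAC against WT-Sham, cardiomyocyte scaling gave 0.27 for Acat1, 0.21 for Bckdhb and 0.27 for Bdh1, and with WT-TAC1 also left out 0.19 for Acat1 and 0.12 for Bckdhb. In Fat1-TAC against WT-TAC it gave -0.18 for Acat1, -0.19 for Bckdha and -0.44 for Bckdhb, and with WT-TAC1 also left out -0.10, -0.26 and -0.35. In the interaction it gave -0.18 and -0.090 for Acat1. With single libraries left out, Acat1 ran from -0.66 to 0.040 for TAC in wild-type mice, and for genotype after TAC Bckdha ran from -0.011 to 0.97 and Bckdhb from -0.10 to 0.57.

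The replicate numbers gave no sign of pairing: the differences between replicate 1 and 2 correlated across genes with r between -0.14 and 0.02 between groups. This cannot exclude a pairing, since the WT-TAC difference also holds the marker differences of WT-TAC1. With the replicate block, 0 of the 8 genes were called in any comparison and the medians were -0.23, -0.0025, 0.36, 0.09 and 0.23 for the 4 comparisons and the interaction, as without it, while calls among all genes went from 135 to 52 for TAC in wild-type mice and from 206 to 52 for genotype after TAC. With 2 libraries a group, differences below about the interval widths given were not detectable, and depth did not limit the 8 genes.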
